A study of Homo sapiens with 9 samples.

Results

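The 9 genes described here encode the TGF-beta ligands (TGFB1, TGFB2, TGFB3), their receptors (TGFBR1, TGFBR2, TGFBR3), the activin subunit INHBA, the latency protein LTBP1 and the target TGFBI. They were chosen by symbol from the 60199 rows of a table of raw counts, with earlier results of these data known. All 9 were found and passed the filter on low counts that left 15717 genes. The table held 9 poly-A RNA-seq libraries, 3 each of MCF10A-CT (CT), MC26 and M1B26. All 3 lines come from MCF10A, an immortalized, nonmalignant human mammary epithelial line. CT is labelled not transformed and was grown without added cytokine. MC26 and M1B26 are labelled transformed, and their medium was supplemented with BMP2 (a ligand of the BMP branch of the TGF-beta superfamily) and IL6. MC26 arose from unsorted MCF10A cells under long exposure to both factors. M1B26 arose from cells that had been sorted by their BMPR1B, a BMP receptor, and was expanded from soft-agar clones. The transformed lines therefore differ from CT in history and in their medium at harvest at once, and these cannot be told apart here. The cultures were described as independent, and each line is 1 derivation, so the tests measure the spread between cultures of a line.

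TGF-beta is secreted in a latent complex, in which the mature ligand stays bound to its own propeptide and, through that, to a latent TGF-beta binding protein such as LTBP1 in the matrix. Integrins and thrombospondin can release it. Free ligand binds the type II receptor TGFBR2, which recruits and phosphorylates the type I receptor TGFBR1, and this phosphorylates SMAD2 and SMAD3, which enter the nucleus with SMAD4. TGFBR3 (betaglycan) is a coreceptor that presents ligand, TGF-beta2 above all, to TGFBR2. In mammary epithelium the pathway is known for growth arrest, for matrix production and, in transformed cells, for epithelial-mesenchymal transition. It induces its own inhibitors, among them SMAD7 and SKIL.

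Total counts ran from 21425118 in CT replicate 2 to 80076597 in CT replicate 3, and log2 CPM (counts scaled to a library size of 1000000) correlated over genes at 0.986 to 0.995 within a line and at 0.951 to 0.975 between lines. The detection floor of 3 counts lay at 0.0366 to 0.131 CPM. All 6 mammary epithelial markers examined were above it in every library, with a summed level of 6287 to 7987 CPM in CT, 6803 to 8660 CPM in MC26 and 5849 to 6122 CPM in M1B26. Most of each sum came from KRT5, with means of 6583, 6261 and 4922 CPM in CT, MC26 and M1B26. In M1B26 against CT 2 of the 6 rose and 2 fell, beside 25.2% and 23.7% of all tested genes. In MC26 against CT 2 rose and 2 fell too, beside 18.8% and 19.9% of all tested genes. There the adhesion molecules EPCAM and CDH1 gave log2 fold changes of -2.25 (SE 0.17, edgeR adjusted p = 3.654e-06) and -0.91 (SE 0.15, adjusted p = 9.695e-04). The basal markers KRT14 and TP63 gave 4.34 (SE 0.25, adjusted p = 8.752e-07) and 1.29 (SE 0.08, adjusted p = 1.542e-06) in MC26. The keratins KRT5 and KRT17 were not called there (-0.07, SE 0.097, adjusted p = 0.585, and 0.21, SE 0.24, adjusted p = 0.523). KRT14 and TP63 were not higher in MC26 alone. KRT14 had 461 to 625 CPM in M1B26 and 42.2 to 61.7 CPM in CT. TP63 had 73.8 to 81.6 CPM in M1B26 and 29.3 to 35.9 CPM in CT. Of the 6 fibroblast markers, COL1A2 and COL3A1 had at most 1 count in any library, PDGFRA at most 7 and THY1 none. PDGFRB had 15 to 61 counts in CT, 12 to 36 in MC26 and 21 to 25 in M1B26. LUM had 3 to 10 counts in CT, 0 to 13 in MC26 and 211 to 262 in M1B26. Of the 5 leukocyte markers, PTPRC had at most 2 counts, CD3E none and CD79A at most 6, but CD14 and CD68 were detected in every library. CD14 had means of 9.07, 13.2 and 38.5 CPM in CT, MC26 and M1B26, and it rose in M1B26 (log2 fold change 2.06, SE 0.23, adjusted p = 3.75e-05) while MC26 gave 0.51 (SE 0.23, adjusted p = 0.1011). CD68 had means of 8.96, 22.5 and 26.7 CPM and rose in MC26 (1.31, SE 0.17, adjusted p = 1.376e-04) and in M1B26 (1.56, SE 0.16, adjusted p = 2.701e-05). The summed level of the 5 leukocyte markers was 14.8 to 19.96 CPM in CT, 34.6 to 36.8 CPM in MC26 and 56.8 to 78.9 CPM in M1B26, and its part in the results was not tested. MC26 and M1B26 were each compared with the same CT libraries, so these comparisons are not independent of each other. In bulk RNA, fewer cells that express a gene and less RNA of that gene per cell cannot be told apart.

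Of the 9 genes, 7 were called changed between MC26 and CT (adjusted p under 0.05 in edgeR's quasi-likelihood test over all tested genes), beside 38.7% of all tested genes. TGFB3, TGFBR1, LTBP1 and TGFBI rose, and TGFB2, TGFBR3 and INHBA fell. The share among all genes was 18.8% called higher and 19.9% called lower. Between M1B26 and CT 5 of the 9 were called, a share close to the 48.9% of all genes (25.2% higher, 23.7% lower). TGFB1, TGFBR2 and LTBP1 rose, and TGFB2 and TGFBR3 fell. Between M1B26 and MC26 again 5 were called, beside 39.5% of all genes (21.2% higher, 18.4% lower). TGFBR2 and INHBA were higher in M1B26, and TGFBR1, LTBP1 and TGFBI were lower. The median log2 fold change of the 9 genes was 0.38, 0.23 and -0.35 in the order of these comparisons, and that of all tested genes was 0.00 in each. With library totals in place of scaling factors the share of higher genes among all calls fell from 48.5% to 35.8% in MC26 against CT and from 51.5% to 39.6% in M1B26 against CT, and the median over all genes moved by -0.0758 and -0.0928 on the log2 scale.

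**Figure D1:**
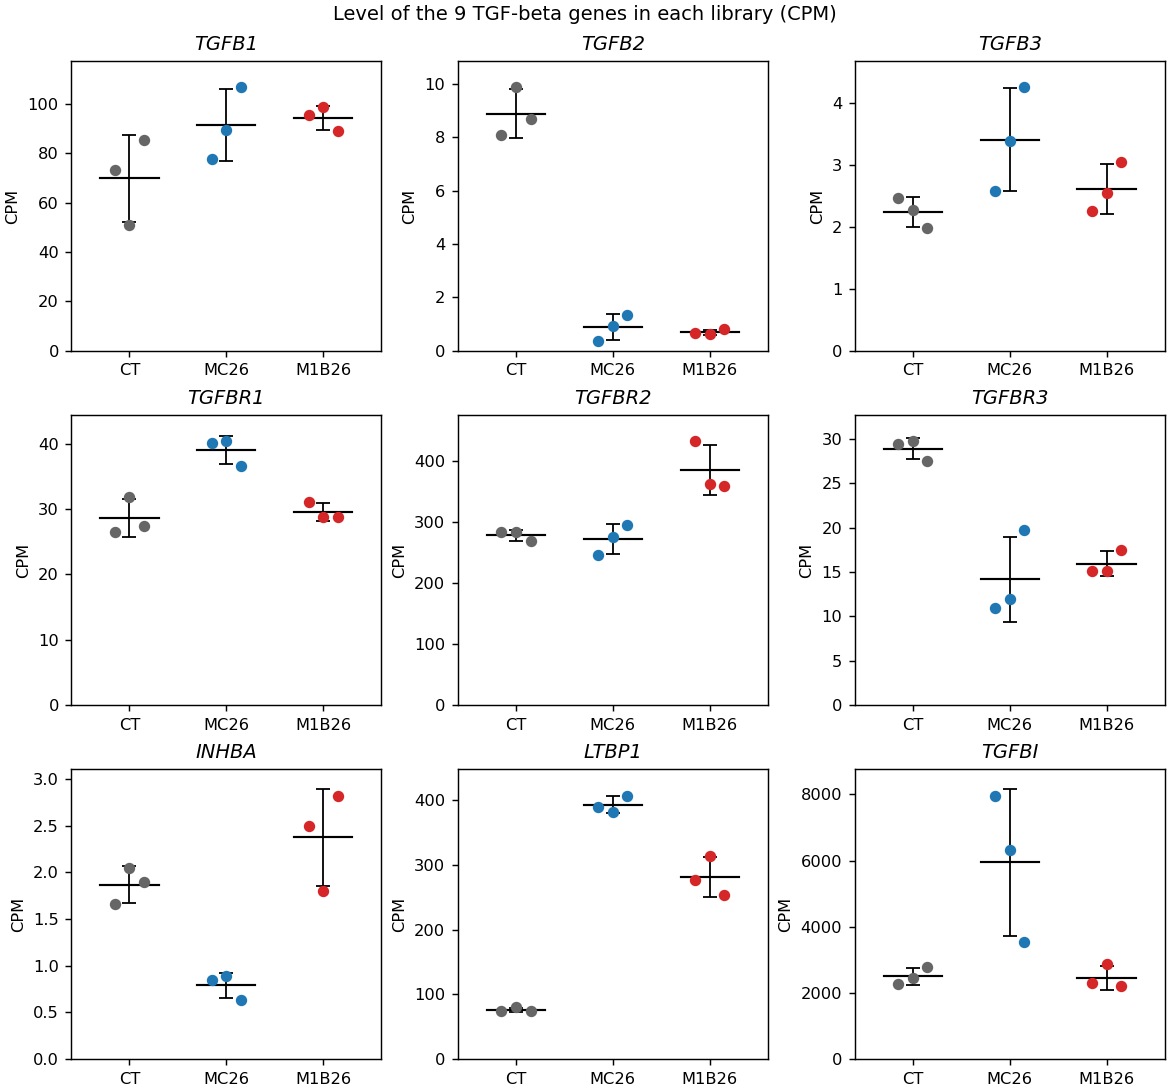
CPM (vertical axis, linear from 0) of each of the 9 genes in the 3 lines (horizontal axis). Points are libraries, replicates 1 to 3 from left to right, horizontal lines are means and bars are ± SD (n = 3). TGFB2 lies between 8.07 and 9.87 CPM in CT and between 0.373 and 1.34 CPM in the other 6 libraries, while LTBP1 goes the other way.

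TGFB1 (chromosome 19, 41301587 to 41353922, minus strand, GRCh38) encodes the ligand best known in epithelium and was the main TGF-beta transcript in each line. It stood at 73.4, 50.8 and 85.2 CPM in CT replicates 1 to 3, at 77.7, 89.6 and 106.6 CPM in MC26 and at 95.4, 98.8 and 89.1 CPM in M1B26. The MC26 libraries overlapped those of CT, and the M1B26 libraries lay above them. The log2 fold change against CT was 0.38 in MC26 (SE 0.16, edgeR adjusted p = 0.0875), which did not pass, and 0.43 in M1B26 (SE 0.16, adjusted p = 0.0480). The call in M1B26 was lost without CT replicate 1 or 2 (adjusted p = 0.0835 and 0.1221), without any single M1B26 library (adjusted p = 0.0656 to 0.1243) and without MC26 replicate 2 (adjusted p = 0.0648). It fell to 0.25 on the log2 scale without CT replicate 2, the library with the lowest TGFB1 level and the fewest counts. In MC26 the gene passed without CT replicate 3 (0.55, adjusted p = 0.0221). TGFB1 shares 215 exonic bases with HNRNPUL1 on the other strand, and whether reads were counted by strand is not given in the sources used here.

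TGFB2 (chromosome 1, 218345336 to 218444619, plus strand) showed the largest difference from CT among the 9 genes in both transformed lines. It had 8.07, 9.87 and 8.70 CPM in CT, 0.373, 0.941 and 1.34 CPM in MC26 and 0.654, 0.615 and 0.812 CPM in M1B26. The lowest CT library stood far above the highest transformed one. TGFB2 was 9.92-fold lower in MC26 than in CT (log2 fold change -3.31, SE 0.30, adjusted p = 1.426e-05) and 12.6-fold lower in M1B26 (-3.66, SE 0.31, adjusted p = 5.419e-06). The counts behind these levels were 226 to 713 in CT, 15 to 57 in MC26 and 26 to 44 in M1B26, all above the floor. M1B26 and MC26 did not separate (-0.35, SE 0.34, adjusted p = 0.45). That difference was -0.71 without MC26 replicate 1, where it passed (adjusted p = 0.0340), and 0.10 without MC26 replicate 3, where it did not.

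TGFB3 (chromosome 14, 75958097 to 75983011, minus strand) was low in all lines. Its levels were 2.47, 2.27 and 1.99 CPM in CT, 2.59, 3.40 and 4.26 CPM in MC26 and 2.25, 2.56 and 3.05 CPM in M1B26. The MC26 libraries all lay above CT, by 0.61 on the log2 scale (SE 0.20, adjusted p = 0.0317), but the call was lost without CT replicate 2 or 3 or MC26 replicate 2 or 3 (adjusted p = 0.0552 to 0.1134) and with library totals in place of scaling factors (adjusted p = 0.0576). In M1B26 the gene overlapped CT (0.23, SE 0.20, adjusted p = 0.37).

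The makeup of the ligand transcripts can be compared per kilobase of exon. TGFB1 made up 91.4% ± 2.78 (SD, n = 3) of the summed CPM per kb of the 3 ligands in CT, 97.3% ± 0.408 in MC26 and 97.9% ± 0.405 in M1B26. TGFB2 made up 6.63% ± 2.28 in CT, 0.487% ± 0.210 in MC26 and 0.391% ± 0.0786 in M1B26. TGFB3 stayed between 1.36% and 2.47% in all libraries. In CT the order per kb was therefore TGFB1, TGFB2, TGFB3, and in both transformed lines TGFB3 stood above TGFB2. The plot of shares by library shows this change next to that of the latent binding proteins.

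**Figure D2:**
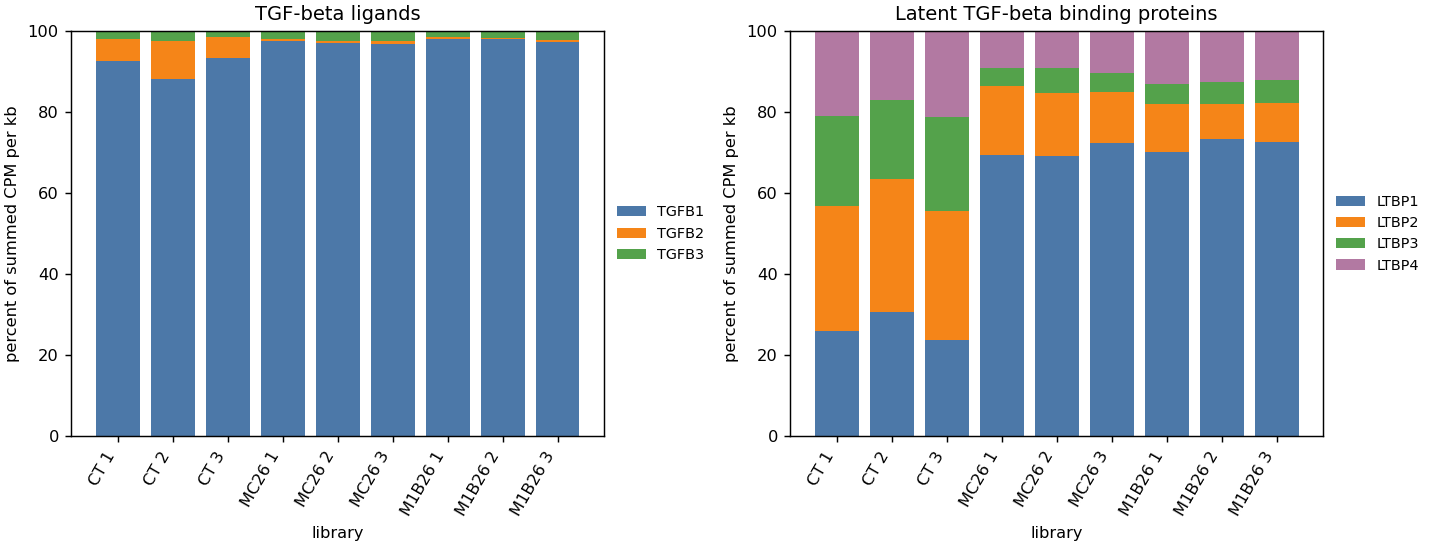
Share of each gene (vertical axis, percent of the summed CPM per kb of its family) in each of the 9 libraries (horizontal axis), for the TGF-beta ligands (left) and the latent TGF-beta binding proteins (right). LTBP1 makes up 23.6% to 30.6% of its family in CT and 69.1% to 73.4% in the MC26 and M1B26 libraries.

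Each receptor had its own pattern. TGFBR1 (chromosome 9, 99104038 to 99154192, plus strand), the type I receptor, had 26.5, 31.9 and 27.4 CPM in CT, 40.1, 40.4 and 36.6 CPM in MC26 and 31.1, 28.7 and 28.7 CPM in M1B26. Only the MC26 libraries stood apart from the others. TGFBR1 was higher in MC26 than in CT by 0.45 on the log2 scale (SE 0.08, adjusted p = 0.00166), overlapped CT in M1B26 (0.05, SE 0.08, adjusted p = 0.64) and gave -0.40 between M1B26 and MC26 (SE 0.08, adjusted p = 0.00342). TGFBR2 (chromosome 3, 30606601 to 30694142, plus strand), the type II receptor, had 283.2, 283.2 and 268 CPM in CT, 247, 276 and 295 CPM in MC26 and 432, 363 and 359.6 CPM in M1B26. Here the M1B26 libraries stood apart, above every other library. The log2 fold change of TGFBR2 was -0.03 in MC26 against CT (SE 0.09, adjusted p = 0.81), 0.47 in M1B26 against CT (SE 0.09, adjusted p = 0.00134) and 0.50 in M1B26 against MC26 (SE 0.09, adjusted p = 0.00140). Tested genes within 10 Mb of TGFBR2 had a median log2 fold change of -0.02 in M1B26 against CT (66 genes), and those within 10 Mb of TGFBR1 one of -0.02 in MC26 against CT (80 genes).

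TGFBR3 (chromosome 1, 91680343 to 91906335, minus strand), the coreceptor, was lower in both transformed lines, with 29.5, 29.7 and 27.5 CPM in CT, 10.9, 12.0 and 19.7 CPM in MC26 and 15.1, 15.2 and 17.5 CPM in M1B26. No transformed library reached the lowest CT value. It gave log2 fold changes of -1.02 in MC26 (SE 0.18, adjusted p = 0.00125) and -0.86 in M1B26 (SE 0.18, adjusted p = 0.00238). M1B26 and MC26 overlapped (0.17, SE 0.18, adjusted p = 0.50), although without MC26 replicate 3, the highest of its line, M1B26 was higher by 0.48 (adjusted p = 0.00355). Per kb, TGFBR2 was the main receptor transcript everywhere, and the ratio of TGFBR2 to TGFBR1 in CPM per kb was 12.4, 10.3 and 11.4 in CT, 7.17, 7.96 and 9.41 in MC26 and 16.2, 14.7 and 14.6 in M1B26. These ranges did not overlap between any 2 lines. TGFBR3 made up 7.09% ± 0.0692 (SD, n = 3) of the 3 receptors in CT, 3.53% ± 0.925 in MC26 and 3.04% ± 0.478 in M1B26.

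INHBA (chromosome 7, 41667168 to 41705834, minus strand) encodes the beta A subunit, whose dimer is activin A, a ligand that also signals through SMAD2 and SMAD3. Alone among the 9 genes, it was lower in MC26 than in both other lines with no overlap. Levels were 1.66, 2.05 and 1.90 CPM in CT, 0.845, 0.889 and 0.635 CPM in MC26 and 2.501, 1.80 and 2.82 CPM in M1B26, resting on 27 to 34 counts per library in MC26. Fitted log2 fold changes were -1.23 in MC26 against CT (SE 0.22, adjusted p = 0.00143), 0.36 in M1B26 against CT (SE 0.20, adjusted p = 0.16) and 1.59 in M1B26 against MC26 (SE 0.22, adjusted p = 3.047e-04).

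LTBP1 (chromosome 2, 32946953 to 33399509, plus strand), which tethers latent TGF-beta to the matrix, had the smallest adjusted p of the 9 genes in both comparisons with CT. It had 74.0, 79.7 and 74.5 CPM in CT, 389, 382 and 407 CPM in MC26 and 277, 314 and 253 CPM in M1B26. The 3 lines did not overlap, and the spread within each was small beside the steps between them. LTBP1 was 5.17-fold higher in MC26 than in CT (log2 fold change 2.37, SE 0.08, adjusted p = 2.815e-08) and 3.70-fold higher in M1B26 (1.89, SE 0.08, adjusted p = 9.329e-08). M1B26 was lower than MC26 (-0.48, SE 0.08, adjusted p = 9.435e-04). LTBP1 made up 26.7% ± 3.58 (SD, n = 3) of the summed CPM per kb of LTBP1 to LTBP4 in CT, 70.2% ± 1.76 in MC26 and 72.0% ± 1.71 in M1B26. Its rise went with a fall of LTBP3, whose log2 fold change was -1.15 in MC26 (SE 0.14, adjusted p = 1.33e-04) and -1.58 in M1B26 (SE 0.15, adjusted p = 9.861e-06). LTBP2, a matrix protein that does not bind latent TGF-beta, was lower in M1B26 alone when set against CT (-1.22, SE 0.13, adjusted p = 3.481e-05), and lower there than in MC26 (-1.11, SE 0.13, adjusted p = 1.317e-04).

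TGFBI (chromosome 5, 136028988 to 136063818, plus strand) encodes a secreted matrix protein named for its induction by TGF-beta, and it was the most abundant of the 9 transcripts per kb in every line. It had 2270.2, 2435 and 2784 CPM in CT, 7968, 6317 and 3550.4 CPM in MC26 and 2288, 2865 and 2206 CPM in M1B26. In MC26 replicate 1 it took 0.777% of all counts, and in the CT libraries 0.234% to 0.285%. All MC26 libraries lay above all others, but they spread 2.24-fold among themselves. TGFBI was 2.38-fold higher in MC26 than in CT (log2 fold change 1.25, SE 0.23, adjusted p = 0.00158), M1B26 was 2.42-fold below MC26 (-1.28, SE 0.23, adjusted p = 0.00149), and M1B26 and CT overlapped (-0.03, SE 0.23, adjusted p = 0.94). Without MC26 replicate 1 the log2 fold change against CT was 0.99 (adjusted p = 0.00441), and without replicate 3 it was 1.52 (adjusted p = 9.523e-06).

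**Figure D3:**
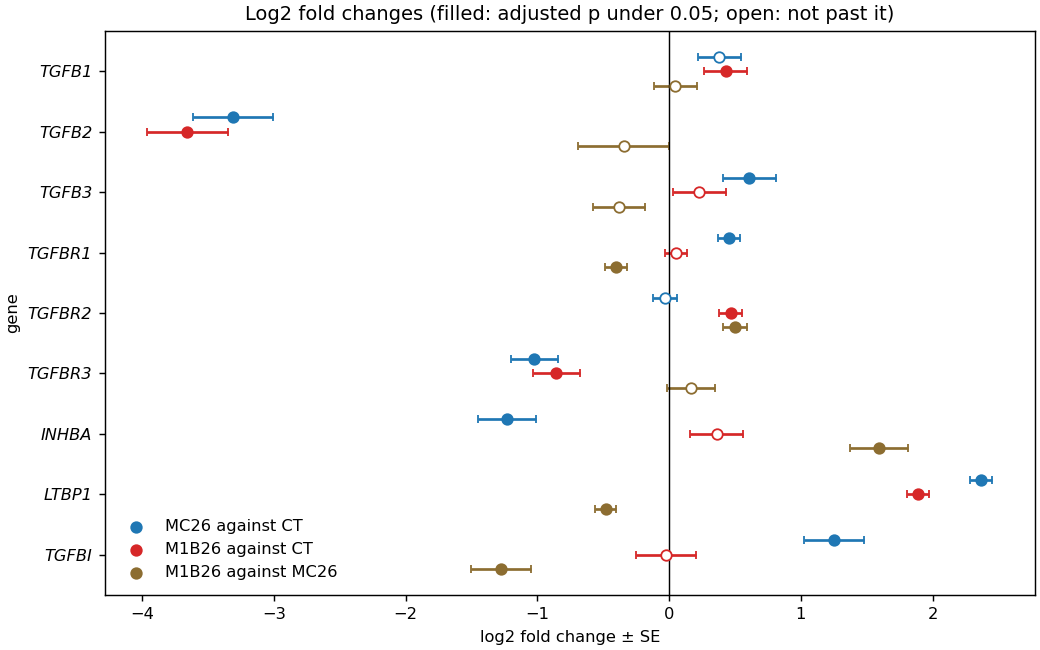
Log2 fold change (horizontal axis) of each of the 9 genes (vertical axis) in the 3 comparisons, with ± SE as bars. Filled circles have an edgeR adjusted p under 0.05 and open circles do not. TGFB2, TGFBR3 and LTBP1 have filled circles on the same side of 0 in both comparisons with CT. TGFBI and INHBA lie away from 0 in MC26 but have open circles in M1B26 against CT.

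Promoter sequence is shown for the 3 of the 5 genes with a called log2 fold change of at least 1 in size whose RefSeq start equals the GENCODE gene start. Each line gives the 250 bases upstream of the start, 5′ to 3′ on the gene strand, which is the plus strand for all 3 (RefSeq, GRCh38.p14). The windows are chr1:218345086-218345335 for TGFB2, chr2:32946703-32946952 for LTBP1 and chr5:136028738-136028987 for TGFBI. LTBP1 has 3 windows in the RefSeq table, and the one at the GENCODE start is shown. Capitals mark matches on either strand to the SMAD box CAGAC, the GC-rich SMAD site GGCGCC, the cyclic AMP response element TGACGTCA, the E-box CACGTG and the TATA box TATAAA.
TGFB2: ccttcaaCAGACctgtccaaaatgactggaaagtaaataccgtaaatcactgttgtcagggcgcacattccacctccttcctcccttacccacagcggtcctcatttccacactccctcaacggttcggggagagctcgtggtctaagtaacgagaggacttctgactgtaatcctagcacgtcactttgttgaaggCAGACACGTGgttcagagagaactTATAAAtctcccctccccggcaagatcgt
LTBP1: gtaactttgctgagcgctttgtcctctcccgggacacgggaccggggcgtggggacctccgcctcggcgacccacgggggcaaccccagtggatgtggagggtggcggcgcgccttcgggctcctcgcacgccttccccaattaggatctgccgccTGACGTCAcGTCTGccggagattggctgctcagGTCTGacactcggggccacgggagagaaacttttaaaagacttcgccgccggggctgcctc
TGFBI: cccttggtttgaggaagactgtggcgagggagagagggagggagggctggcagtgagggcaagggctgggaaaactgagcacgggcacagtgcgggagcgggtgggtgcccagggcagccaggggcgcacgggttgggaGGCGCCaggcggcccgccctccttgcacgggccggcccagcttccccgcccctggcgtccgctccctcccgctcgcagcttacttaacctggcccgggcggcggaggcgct

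Positions in these windows count back from -1, the base before the start. The TGFB2 window held the SMAD box at -243 and -53, and the second match shared a base with the E-box at -49. Its TATA box began at -29. The LTBP1 window held the SMAD box on the other strand at -85 and -61, and the cyclic AMP response element at -94. The TGFBI window held the GC-rich SMAD site at -111 and no match to the other 4 motifs. Of 35116 RefSeq windows of the same length, 38.0% held the SMAD box, 16.4% the GC-rich site, 1.65% the cyclic AMP response element, 6.34% the E-box and 10.7% the TATA box. A match is a stretch of letters and not a bound site. The SMAD box was present in the window of TGFB2, which fell, and in that of LTBP1, which rose. A link between motif and direction was not tested.

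Beyond these 9 genes, 62 further genes of the pathway were listed by role, and 54 of them passed the filter on low counts. In MC26 against CT 23 rose and 11 fell, beside 18.8% and 19.9% of all tested genes (median log2 fold change 0.32). In M1B26 against CT 17 rose and 15 fell, with a median of -0.06, and these shares lie near the 25.2% and 23.7% of all genes. M1B26 stood below MC26 in 25 and above it in 6 of them, beside 18.4% and 21.2% of all genes, with a median of -0.36. The median over all tested genes was 0.00 in each comparison. The heat map of these genes shows the same by role and library.

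**Figure D4:**
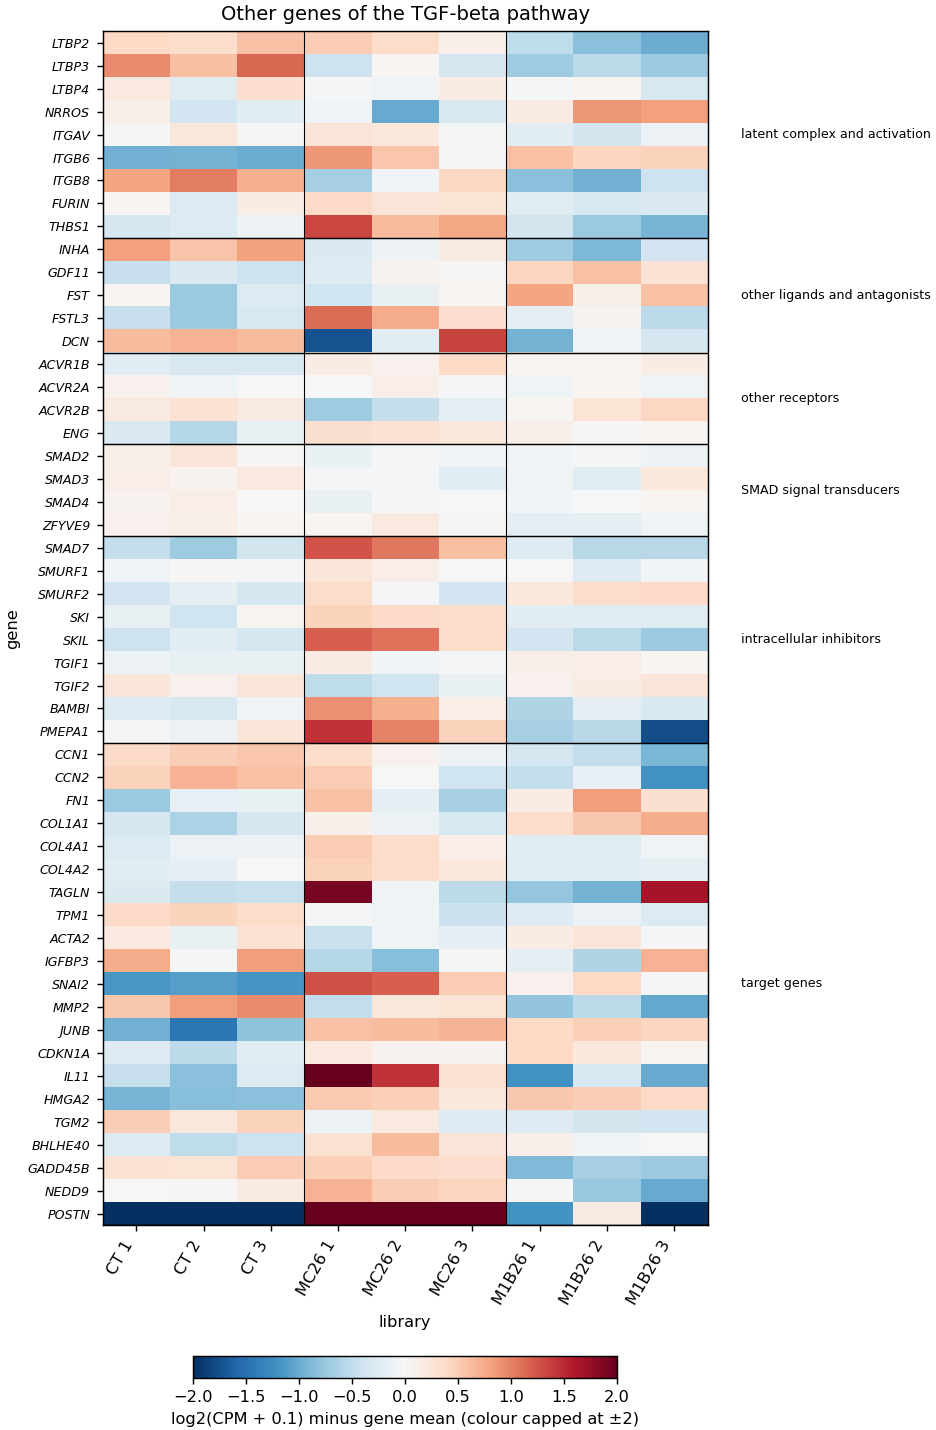
Log2(CPM + 0.1) minus the mean of the gene over the 9 libraries (color, capped at ± 2) for tested genes of the pathway other than the 9 described above. Rows are genes grouped by role, columns are libraries. SMAD7, SKIL, BAMBI, PMEPA1, SNAI2 and POSTN are above their mean in all 3 MC26 libraries.

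Among genes for the latent complex and its activation, 3 of 9 tested rose and 2 fell in MC26 (18.8% and 19.9% of all genes), and 2 rose and 5 fell in M1B26 (25.2% and 23.7% of all genes). The integrin subunits that activate latent TGF-beta went in opposite directions. ITGB6, of integrin alpha v beta 6 in epithelia, rose by 1.49 on the log2 scale in MC26 (SE 0.16, adjusted p = 5.01e-05) and by 1.47 in M1B26 (SE 0.16, adjusted p = 3.737e-05). ITGB8, of alpha v beta 8, had log2 fold changes of -0.88 (SE 0.22, adjusted p = 0.00994) and -1.56 (SE 0.23, adjusted p = 2.467e-04). THBS1, a matrix protein that can activate TGF-beta and is also a target of it, had 302, 317 and 355 CPM in CT, 964, 593 and 651 CPM in MC26 and 298, 228 and 200.3 CPM in M1B26. It was higher in MC26 than in CT (1.18, SE 0.18, adjusted p = 5.378e-04), and M1B26 fell below MC26 (-1.61, SE 0.18, adjusted p = 9.308e-05). M1B26 against CT gave -0.43 and did not pass (SE 0.18, adjusted p = 0.0714), although it passed under 5 of the 8 other settings tried, DESeq2 and the replicate block among them, and without MC26 replicate 1 or M1B26 replicate 1. FURIN, the protease that cleaves the propeptide, was higher in MC26 (0.32, SE 0.10, adjusted p = 0.0202), and lower in M1B26 (-0.27, SE 0.10, adjusted p = 0.0371). The first of these calls was lost without MC26 replicate 1, and the second without CT replicate 1 or 3, MC26 replicate 2 or any M1B26 library.

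Of the other ligands and antagonists 2 of 5 tested rose and 1 fell in each comparison with CT. The shares of all genes were 18.8% higher and 19.9% lower in MC26, and 25.2% and 23.7% in M1B26. FSTL3, a secreted antagonist of activin, rose by 1.26 on the log2 scale in MC26 (SE 0.20, adjusted p = 5.644e-04), the line in which INHBA fell, and M1B26 fell below MC26 (-0.96, SE 0.19, adjusted p = 0.00286). GDF11, a ligand close to myostatin, rose by 0.84 in M1B26 (SE 0.11, adjusted p = 1.504e-04). Of 4 other receptors tested, ENG (endoglin, a coreceptor) rose in MC26 (0.60, SE 0.09, adjusted p = 5.601e-04) and in M1B26 (0.38, SE 0.09, adjusted p = 0.00617). The activin type I receptor ACVR1B rose too, by 0.49 (SE 0.09, adjusted p = 0.00145) and 0.35 (SE 0.09, adjusted p = 0.00709). ACVR2B, a type II receptor, was lower in MC26 alone when set against CT (-0.67, SE 0.14, adjusted p = 0.00425), and M1B26 exceeded MC26 (0.71, SE 0.14, adjusted p = 0.00308).

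The SMAD transducers moved little. SMAD2 was lower in MC26 (-0.21, SE 0.07, adjusted p = 0.0363) and in M1B26 (-0.20, SE 0.07, adjusted p = 0.0366), calls that were lost without 1 library in 7 and 6 of 9 such fits. SMAD3 had log2 fold changes of -0.23 (SE 0.11, adjusted p = 0.12) and -0.15 (SE 0.11, adjusted p = 0.27), and SMAD4 of -0.13 (SE 0.07, adjusted p = 0.15) and -0.06 (SE 0.07, adjusted p = 0.50), none of which passed. ZFYVE9 (SARA), which anchors SMADs to the receptor, had a log2 fold change of -0.24 in M1B26 (SE 0.07, adjusted p = 0.0196), a call lost without CT replicate 1 or M1B26 replicate 1 or 2.

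Among the intracellular inhibitors, those that rose in MC26 did not rise in M1B26. Of 9 tested, 5 rose and 1 fell in MC26 against CT, 2 rose and 1 fell in M1B26 against CT, and in M1B26 against MC26 1 was higher and 5 were lower. The shares of all genes were 18.8% higher and 19.9% lower, 25.2% and 23.7%, and 21.2% and 18.4% in the same order, so the M1B26 count against CT lies near or below that of all genes. SMAD7, which blocks the type I receptor, had 9.83, 8.30 and 10.6 CPM in CT, 32.7, 28.7 and 20.9 CPM in MC26 and 11.4, 9.32 and 9.30 CPM in M1B26. M1B26 overlapped CT, and MC26 lay above both. It gave log2 fold changes of 1.51 in MC26 (SE 0.16, adjusted p = 4.121e-05), 0.05 in M1B26 (SE 0.16, adjusted p = 0.82) and -1.46 in M1B26 against MC26 (SE 0.16, adjusted p = 6.916e-05). SKIL (SnoN), a repressor of SMAD-driven transcription, had the same shape, with 1.27 in MC26 (SE 0.18, adjusted p = 3.53e-04), -0.21 in M1B26 (SE 0.18, adjusted p = 0.37) and -1.48 between them (SE 0.18, adjusted p = 1.564e-04). SKI, its relative, and BAMBI, a pseudoreceptor, also rose in MC26, by 0.54 (SE 0.10, adjusted p = 0.00120) and 0.83 (SE 0.19, adjusted p = 0.00522).

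PMEPA1, which sequesters SMAD2 and SMAD3, was on opposite sides of CT in the transformed lines. It had 35.8, 33.4 and 43.2 CPM in CT, 99.7, 72.8 and 50.4 CPM in MC26 and 22.9, 24.8 and 10.5 CPM in M1B26, with no overlap between the lines. Fitted log2 fold changes were 0.98 in MC26 (SE 0.29, adjusted p = 0.0206), -0.96 in M1B26 (SE 0.30, adjusted p = 0.0196) and -1.94 in M1B26 against MC26 (SE 0.30, adjusted p = 6.216e-04). The first call was lost without MC26 replicate 1 (0.71, adjusted p = 0.0865) or without CT replicate 1 or 2, and the second without CT replicate 3 (adjusted p = 0.0620). TGIF2, a repressor, was lower in MC26 (-0.54, SE 0.10, adjusted p = 0.00131). SMURF2, a ubiquitin ligase for the receptor, was higher in M1B26 (0.63, SE 0.15, adjusted p = 0.00532). SMURF2 lies on chromosome 17, whose 841 tested genes had a median log2 fold change of 0.47 in M1B26 against CT, and the part of this shift in its value was not tested. No other chromosome had a median beyond 0.1 on either side of 0 in any comparison.

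**Figure D5:**
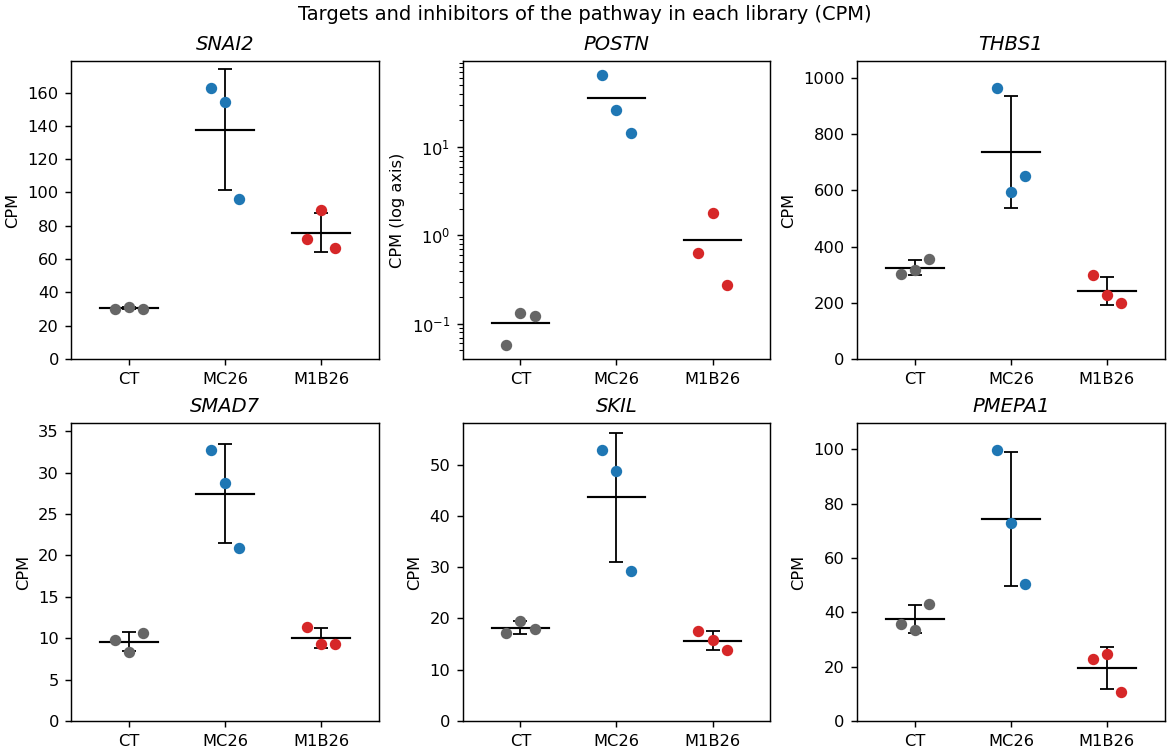
CPM (vertical axes; logarithmic for POSTN, linear from 0 for the others) of 6 targets and inhibitors in the 3 lines (horizontal axis). Points are libraries, replicates 1 to 3 from left to right, horizontal lines are means and bars on the linear panels are ± SD (n = 3). MC26 replicate 1 is the highest library in all 6 panels.

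Of 23 target genes tested, 11 rose and 5 fell in MC26, beside 18.8% and 19.9% of all genes. In M1B26 9 rose and 6 fell, beside 25.2% and 23.7% of all genes. M1B26 was lower than MC26 in 12 of them and higher in 2, beside 18.4% and 21.2% of all genes. POSTN (periostin), a matrix protein, had 4, 3 and 10 counts in CT, 2652, 1004 and 614 in MC26 and 28, 75 and 15 in M1B26. It rose by 8.47 on the log2 scale in MC26 (SE 0.85, adjusted p = 2.754e-05), by 7.67 without MC26 replicate 1. M1B26 against CT gave 3.11 (SE 1.17, adjusted p = 0.0464), and this call was lost without any CT library or without M1B26 replicate 1 or 2 (2.15 without replicate 2, adjusted p = 0.2177). SNAI2 (Slug), a transcription factor of epithelial-mesenchymal transition, rose in MC26 (2.18, SE 0.18, adjusted p = 6.757e-06) and in M1B26 (1.32, SE 0.17, adjusted p = 1.28e-04). JUNB and the chromatin protein HMGA2 also rose in both, JUNB by 1.67 and 1.48 (SE 0.13 in both, adjusted p = 4.69e-06 and 7.169e-06) and HMGA2 by 1.28 and 1.35 (SE 0.09 in both, adjusted p = 2.186e-06 and 1.073e-06).

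Other targets were lower in the transformed lines. MMP2, a gelatinase, had log2 fold changes of -0.75 in MC26 (SE 0.21, adjusted p = 0.0149, lost without CT replicate 3) and -1.59 in M1B26 (SE 0.21, adjusted p = 1.461e-04). The actin-binding TPM1 was lower in both, at -0.57 (SE 0.10, adjusted p = 0.00108) and -0.62 (SE 0.10, adjusted p = 4.385e-04), and so was the transglutaminase TGM2, at -0.45 (SE 0.11, adjusted p = 0.009995) and -0.75 (SE 0.12, adjusted p = 3.499e-04). CCN2 (CTGF), a matricellular protein, and GADD45B, a stress-response protein, were lower in M1B26, at -1.15 (SE 0.25, adjusted p = 0.00336) and -1.12 (SE 0.09, adjusted p = 4.439e-06). COL1A1, a collagen chain that is also a gene of chromosome 17, was higher in M1B26 (0.98, SE 0.14, adjusted p = 1.634e-04). The summed level of 6 fibroblast markers was 0.830 to 0.900 CPM in CT, 0.418 to 1.1995 CPM in MC26 and 4.91 to 6.88 CPM in M1B26, nearly all from LUM (lumican) with 211, 262 and 237 counts in M1B26.

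The MC26 replicates were not ordered alike for all genes. Replicate 1 was the highest and replicate 3 the lowest MC26 library for TGFBI, SMAD7, SKIL, PMEPA1, POSTN and SNAI2, and the reverse held for TGFB1, TGFB2, TGFB3, TGFBR2, TGFBR3 and ITGB8. TGFBR1, LTBP1 and INHBA followed neither order.

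For each gene of the 9 with a called log2 fold change of at least 1 in size, the closest levels over the 9 libraries were sought among the 10634 or 10635 other genes averaging 5 CPM or more. Likeness was the root mean square (RMS) difference between log2 CPM values centered on each gene's mean, which shares depth and library effects among genes and is given as a description. TGFB2, whose own RMS deviation was 1.72, was nearest to DAPK1 (0.31), a death-associated kinase, and MEGF6 (0.43). TGFBI, with an RMS deviation of 0.64, was nearest to SKIL (0.19) and to the cytokine CLCF1 (0.19). LTBP1, at 1.02, was nearest to CLCA2 (0.18) and SRPX (0.23). TGFBR3, at 0.52, was nearest to INKA2 (0.12) and the transcription factor NFIL3 (0.12), and INHBA, at 0.69, to SCCPDH (0.24) and MYEF2 (0.25). DAPK1 itself went from 23.9 ± 0.980 CPM (SD, n = 3) in CT to 3.15 ± 1.65 CPM in MC26 and 2.501 ± 0.656 CPM in M1B26. CLCA2 went from 61.4 ± 7.32 CPM to 293 ± 23.9 and 259 ± 23.1 CPM.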

How the data were processed

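RNA-seq of 9 cultures (3 each of CT, MC26 and M1B26) was analysed, with groups and replicate numbers read from the titles. The authors deposited raw counts for each gene symbol. The authors aligned paired-end poly-A reads to GRCh38 with STAR 2.7.3a, and their methods name Salmon 1.1.0 for quantification on an annotation of protein-coding genes. The deposited table holds whole numbers only and lists non-coding genes too, so it was not settled which program made it, and the use of strand and the handling of multimapping reads are not given in the sources used here. The labels and the methods of the study differ on the BMP2 and IL6 concentrations, so none is given.

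The filter was filterByExpr of edgeR 4.0.16 in R 4.3.3 with a minimum count of 10, scaling was by TMM, and 1 quasi-likelihood model with the 3 lines was fitted to all 9 libraries. The 3 pairs of lines were tested with glmQLFTest, and 2-sided p-values were Benjamini-Hochberg adjusted over all 15717 genes, with calls at an adjusted p under 0.05. The SE of a log2 fold change was its size divided by the square root of F. CPM used TMM-scaled library sizes, and CPM per kb divided them by the exonic length in GENCODE 44, which also gave the gene positions. Chromosome and 10 Mb medians used RefSeq positions (GRCh38.p14). The fit was also run on simulated counts in which a set of genes was changed in MC26 alone. That set was far smaller than the number of genes called in the data, and the outcome is not reported here. Total counts set the precision, and intervals were not drawn from them.

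The 9 genes, the lists and the tests were chosen with earlier results of these data known. Named were the 9 genes, SMAD2, SMAD3, SMAD4, SMAD7, SKIL, PMEPA1 and THBS1, for each list and comparison up to 3 genes called higher and 3 called lower with the largest log2 fold changes at a mean of at least 1 CPM, and for genes of the 9 with a called log2 fold change of at least 1 in size the 2 other genes nearest in level. Cell type markers, HNRNPUL1 and values of genes in comparisons where this rule did not name them were added after the values were seen. Some genes that the rule names are not reported here. Sequences came from a RefSeq table that held all 9 genes. Each result was also computed with DESeq2 1.42.0, with RLE scaling, on plain library totals, unfiltered, for genes averaging 50 counts or more, on the 6 libraries of a comparison, with a replicate block, at an adjusted p under 0.01, and 9 times with 1 library omitted.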

Additional observations from a re-analysis of the deposited data

Results flagged for a closer look

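For 5 of the 9 genes the change from CT differed between the transformed lines, as tested by M1B26 against MC26 in edgeR, which is the difference between both changes from CT. Of all tested genes 39.5% were called in the same comparison. The log2 fold change of M1B26 against MC26 was -0.40 for TGFBR1, 0.50 for TGFBR2, 1.59 for INHBA, -0.48 for LTBP1 and -1.28 for TGFBI, with adjusted p-values from 3.047e-04 to 0.00342. TGFBR1, INHBA and TGFBI were called against CT in MC26 and not in M1B26, TGFBR2 in M1B26 and not in MC26, and LTBP1 in both lines and in the same direction. No group had enough libraries for a test of single outlying values.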

How the results depend on the processing

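Each call on the 9 genes was repeated under 8 other settings and without each of the 9 libraries. No gene of the 9 that was called changed direction. With 1 library left out, 229 values kept their side of the threshold, 10 calls were lost and 4 gained. Under the other settings 209 kept it, 5 calls were lost and 2 gained. The lost calls were those of TGFB1 in M1B26 and TGFB3 in MC26 against CT, and the gained ones those of TGFB1 in MC26 against CT and of TGFB2, TGFB3 and TGFBR3 in M1B26 against MC26. For TGFB1 in MC26 these included DESeq2 (adjusted p = 0.0441) and the edgeR fit without a filter (adjusted p = 0.00252). The cause was not tested. At an adjusted p under 0.01, by its own construction, fewer genes were called, 3698 in place of 6081 in MC26 against CT and 3685 in place of 6215 in M1B26 against MC26, and 21 in place of 32 of the other pathway genes in M1B26 against CT. Same-numbered replicates were not paired, since the correlation of their deviations from the group means was -0.114 to 0.136 over 9 pairs and over 0.1 in 2 of them. With the replicate block 5879, 7513 and 6009 genes were called in the order of MC26 or M1B26 against CT and M1B26 against MC26, with 7, 5 and 5 of the 9 genes and 34, 30 and 30 other pathway genes. Low counts limit TGFB2 in MC26 (15 to 57) and M1B26 (26 to 44) and INHBA in MC26 (27 to 34). CT replicate 2 was the shallowest library, with 47 counts of INHBA and 52 of TGFB3.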

Other observations

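Some genes of the pathway had few or no counts. LRRC32 (GARP), which holds latent TGF-beta on the cell surface, and CDKN2B, a cell cycle inhibitor induced by TGF-beta, had 0 counts in all 9 libraries, and INHBB had at most 4. The paper describes MCF10A cells as deleted for p16/CDKN2A. Whether the CDKN2B locus is intact in these lines was not tested. IL11, a cytokine induced by TGF-beta, had 26, 6 and 36 counts in CT, 129, 64 and 30 in MC26 and 8, 18 and 12 in M1B26. It gave log2 fold changes of 2.29 in MC26 against CT (SE 0.49, edgeR adjusted p = 0.00399) and -2.76 in M1B26 against MC26 (SE 0.52, adjusted p = 0.00198). Without MC26 replicate 1 these were 1.64 (adjusted p = 0.0149) and -2.11 (adjusted p = 0.00554). TAGLN, an actin-binding protein, was high in 1 library of each transformed line, at 14.7 CPM in MC26 replicate 1 and 12.3 CPM in M1B26 replicate 3, beside 1.94 to 3.61 CPM in the other 7. DCN (decorin), a proteoglycan that binds TGF-beta, spread from 5.44 to 47.3 CPM within MC26 and from 28.6 to 29.9 CPM within CT. Of 3 endothelial markers tested, TEK rose in MC26 against CT (log2 fold change 1.64, SE 0.35, adjusted p = 0.00366), and PECAM1 (-4.21, SE 0.53, adjusted p = 1.4e-04) and KDR (-1.51, SE 0.23, adjusted p = 4.384e-04) fell. The shares of all tested genes were 18.8% higher and 19.9% lower. In M1B26 against CT 1 rose and 1 fell, beside 25.2% and 23.7% of all tested genes. Means in CT, MC26 and M1B26 were 0.544, 1.72 and 1.27 CPM for TEK, 5.04, 0.268 and 0.897 CPM for PECAM1 and 2.56, 0.892 and 2.62 CPM for KDR. CDH5 and VWF had at most 3 counts in any library.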
